A study of Mus musculus with 22 samples.

Results

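Distal open chromatin that stayed in place across conditions was described here in mouse embryonic stem (ES) cells with and without depletion of the telomeric repeat-containing RNA TERRA. Its members were chosen by ATAC-seq alone. They are the peaks of the ATAC list of scramble KD replicate 1 that overlapped, by at least 1 bp, a peak in each of the other 3 ATAC lists and lay more than 10 kb from every transcription start site (TSS) of a curated RefSeq gene in GRCm38. Of the 78571 peaks of that list, 32755 (41.7%) met this rule. The 78468 peaks on chromosomes 1 to 19, X and Y served as the background, and the 103 peaks on other sequences were not used. Without the distance rule 56565 peaks (72.1%) were found in all 4 lists, and without the stability rule 48724 (62.1%) were distal, so that 67.2% of the distal peaks were members. The share found in all 4 lists was 91.6% among the 15734 peaks within 1 kb of a TSS. Because presence in all 4 lists selected the members, their ATAC signal is given as a description and not as a test of TERRA depletion.

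The cells were the female ES cell line 16.7, a hybrid of CAST/Ei and 129/Sv/Jae, grown on feeders with serum and LIF and then passaged on gelatin without feeders. Scramble KD cells received a control locked nucleic acid (LNA) gapmer by nucleofection and TERRA KD cells received a gapmer against TERRA, and both were collected after 12 h. ATAC-seq and chromatin immunoprecipitation of ATRX, of H3K9me3 and of G-quadruplexes (G4, with the BG4 antibody) were each done with 2 replicates per condition, which gave 16 peak lists. All samples came from a single line, and the study calls its ChIP-seq replicates biological. Whether they were separate cultures is not given in the sources used here, so p-values measure only the spread between these samples. Groups were taken from the sample titles, since another label names TERRA KD cells for every sample, scramble KD included, and no value here checks the knockdown. The ATRX and H3K9me3 lists of a replicate and condition were called against the same input, and both G4 replicates of a condition shared an input.

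Distal open chromatin is where most enhancers and insulators of a cell lie. Enhancers are bound by transcription factors, in ES cells OCT4, SOX2, NANOG, ESRRB, KLF4 and STAT3 among others, and insulators by CTCF. ATRX is a chromatin remodeller that, with its partner DAXX, places the histone variant H3.3 at telomeres and other repeats, where trimethylation of lysine 9 of histone H3 (H3K9me3) marks silenced chromatin. G-quadruplexes are folded structures of guanine-rich DNA. TERRA is an RNA with UUAGGG repeats whose transcription runs from the subtelomeres toward the chromosome ends.

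The libraries differed in depth and in the kind of peak called, and this touches every value below. ATRX libraries held from 4104486 to 15506154 tags, H3K9me3 libraries from 5435286 to 13898785, G4 libraries from 2961038 to 24588605 and ATAC libraries from 5976014 to 7883648. TERRA KD had 0.62 and 0.96 times the tags of scramble KD in the 2 ATRX replicates, 1.15 and 0.91 times in H3K9me3, 1.95 and 0.53 times in G4 and 1.11 and 1.05 times in ATAC. H3K9me3 peaks of replicate 1 had median lengths of 2400 bp in scramble KD and 3120 bp in TERRA KD, against 491 and 515 bp in replicate 2. G4 scramble KD replicate 2 stood apart with 389434 peaks, against 140119 to 225024 in the other G4 lists. The lists hold no value scaled between libraries, so presence of a peak was compared over samples, and a region without a peak is one where enrichment was not detectable at that depth. ATAC peaks lay within 1 kb of the TSS of 7 or 8 of 8 ES cell markers in each list, with Nanog or Esrrb lacking in 3 lists, and of 6 or 7 of 8 fibroblast markers, with Col3a1 in none. The part of feeder cells in the results was not tested, and in bulk samples a mark in fewer cells and a weaker mark in each cell cannot be told apart. The line is recorded as XX, and yet 106 members lay on chromosome Y, so each difference between conditions is also given without them. Of these 106 members, 22 lay past 90 Mb. Whether the signal on chromosome Y members came from sequence shared with other chromosomes, X included, was not tested.

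Sequences at the ATAC summits of members show what this set contains. The windows below are the 200 bases centred on the summit in scramble KD replicate 1, read 5′ to 3′ on the plus strand of GRCm38. They are a part of the annotated Sox2 control region at chr3:34757947-34758146, a member downstream of Nanog at chr6:122770439-122770638 that lies in no annotated enhancer, an OCT4-SOX2 site at chr6:91701274-91701473 in an intron and a CTCF site at chrX:75674208-75674407, all shown for the factor whose motif they carry. A member with ATRX in TERRA KD lists alone at chr6:3183085-3183284 and a member with G4 in all 4 lists at chr12:113335904-113336103 are shown for the marks they carry. Capitals mark the named motif on either strand, and in the last pair every run of at least 3 G or 3 C.
Sox2 control region, ESRRB site: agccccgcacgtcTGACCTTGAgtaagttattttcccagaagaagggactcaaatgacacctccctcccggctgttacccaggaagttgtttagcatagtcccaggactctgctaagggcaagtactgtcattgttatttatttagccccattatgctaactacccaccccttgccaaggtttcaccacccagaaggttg
Nanog downstream member, ESRRB site: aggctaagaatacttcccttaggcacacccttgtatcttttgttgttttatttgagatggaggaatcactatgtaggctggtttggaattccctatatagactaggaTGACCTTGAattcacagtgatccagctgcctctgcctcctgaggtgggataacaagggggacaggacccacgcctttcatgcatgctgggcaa
OCT4-SOX2 site near Slc6a6: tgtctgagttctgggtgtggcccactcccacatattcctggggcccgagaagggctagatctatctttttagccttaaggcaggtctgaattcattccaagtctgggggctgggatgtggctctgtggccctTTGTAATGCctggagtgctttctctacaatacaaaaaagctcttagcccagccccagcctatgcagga
CTCF core near 4933407K13Rik: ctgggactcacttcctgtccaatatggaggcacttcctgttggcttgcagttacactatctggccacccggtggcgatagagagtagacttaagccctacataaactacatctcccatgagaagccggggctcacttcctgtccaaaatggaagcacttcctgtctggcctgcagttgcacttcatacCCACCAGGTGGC
ATRX in TERRA KD alone, near Gm8579: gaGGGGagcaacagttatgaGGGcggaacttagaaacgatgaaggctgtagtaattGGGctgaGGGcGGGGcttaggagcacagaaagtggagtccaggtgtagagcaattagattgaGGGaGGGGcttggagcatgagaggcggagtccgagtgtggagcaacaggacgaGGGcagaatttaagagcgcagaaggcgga
G4 in all 4 lists, near Tmem121: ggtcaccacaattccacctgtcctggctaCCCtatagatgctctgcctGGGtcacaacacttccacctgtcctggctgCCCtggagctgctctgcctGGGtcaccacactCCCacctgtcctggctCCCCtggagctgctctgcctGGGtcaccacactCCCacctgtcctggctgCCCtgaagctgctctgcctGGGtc

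These members differed in the marks found on them. The Sox2, Nanog and OCT4-SOX2 windows carried no ATRX, H3K9me3 or G4 peak in any list, although their ATAC pileups reached 54, 79 and 140. The CTCF member carried all 3 marks in TERRA KD replicate 1, with 11 ATRX, 210 H3K9me3 and 27 G4 tags. It also had G4 in scramble KD replicate 2 (66 tags) and TERRA KD replicate 2 (29). The Gm8579 window had 35 and 80 ATRX tags in TERRA KD and no ATRX peak in scramble KD.

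A second set of windows is shown for sequence that members shared. Among the members, 11962 (36.5%) held a stretch of 24 bases in the summit window that another member also held, and 8911 (27.2%) held a stretch shared with at least 9 others. Taking the most common stretch first and assigning each member to 1 stretch, 9 stretches of at least 100 members each covered 4696 members (14.3%). Stretches 1, 2 and 4, in capitals, are shown in the windows chr14:53935855-53936054, chr5:69123752-69123951 and chr14:41723901-41724100, since G4 or H3K9me3 peaks were frequent on them.
Stretch 1 near Dad1: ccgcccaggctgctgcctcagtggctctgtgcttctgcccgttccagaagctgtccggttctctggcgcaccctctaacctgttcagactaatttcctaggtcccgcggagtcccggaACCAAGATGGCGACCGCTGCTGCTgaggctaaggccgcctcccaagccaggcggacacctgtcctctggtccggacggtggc
Stretch 2 near Kctd8: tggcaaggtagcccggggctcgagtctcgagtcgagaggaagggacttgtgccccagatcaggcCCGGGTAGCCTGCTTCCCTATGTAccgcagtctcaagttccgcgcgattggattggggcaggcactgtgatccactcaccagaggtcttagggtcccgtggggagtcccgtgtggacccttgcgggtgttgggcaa
Stretch 4 near Gm8068: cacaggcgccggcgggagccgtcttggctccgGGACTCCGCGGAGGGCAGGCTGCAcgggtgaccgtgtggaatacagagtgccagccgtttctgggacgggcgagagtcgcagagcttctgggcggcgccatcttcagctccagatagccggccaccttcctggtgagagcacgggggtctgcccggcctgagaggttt
Stretch 9, the only 1 of the 9 with a median GC content below 50%: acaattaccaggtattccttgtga

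The members covered 20.4 Mb in all, with a median length of 581 bp against 518 bp over all ATAC peaks and 725 bp for the 14409 promoter peaks, that is, peaks in all 4 lists within 1 kb of a TSS. By the summit, 57.4% lay in intergenic DNA, 38.7% in introns, 2.21% in coding exons and 1.71% in other exons of curated genes. Median distance to the nearest TSS was 45.2 kb, and 1354 members (4.13%) were over 500 kb away. Autosomes held 31086 members and the X chromosome 1563 (4.77%).

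Repeated sequence was common among the members. Over 50% of the window was soft-masked, the reference's own mark for repeats, in 31% of members, 19.6% of all ATAC peaks and 1.4% of promoter peaks. The 50 central bases occurred in a single copy in the reference chromosomes for 78.9% of members and in more than 10 copies for 15.8%, against 87.5% and 8.2% of all peaks. A read that fits several places is put at 1 of them by the aligner's default settings. Its part in the values on multi-copy members was not tested, so single-copy values are given beside the main results. The measure counts exact matches of 50 bases in these chromosomes only. The 5 members of highest ATAC pileup, named below near Lrrc4c, Col19a1 and Esp38, are all single copy by it. One of them matches the mitochondrial genome, so single-copy members are not free of repeated sequence.

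The label of candidate enhancers and insulators was checked against annotation and motifs. RefSeq places 1015 experimentally tested enhancers in this genome, and 177 of them overlapped a member. Members that overlapped such an enhancer by at least 1 bp numbered 190 (0.58%, against 0.433% over all peaks and 0.187% of promoter peaks). None of the 7 annotated enhancer-blocking elements held a member. A strict CTCF core motif was found in 503 windows (1.54%, against 1.29% over all peaks and 0.451% of promoter peaks).

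Motifs of ES cell factors were present at shares near or somewhat above those of all ATAC peaks. The OCT4-SOX2 core TTGTNATGC was in 511 windows (1.56%, against 1.17% over all peaks), the octamer ATGCAAAT of OCT4 in 817 (2.49% against 2.06%) and the ESRRB site TCAAGGTCA in 258 (0.788% against 0.658%). The KLF site GGGNGTGGC was in 877 (2.68% against 3.1%) and the STAT3 site TTCCNGGAA in 233 (0.711% against 0.723%). The AP-1 site TGANTCA was in 2201 (6.72% against 5.93%). Every motif was searched on both strands, and octamer and OCT4-SOX2 matches can overlap.

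Motifs for G4 folding were rarer at members than at promoter peaks, while telomeric and TG repeats were few but more frequent at members. A G4 motif, 4 runs of at least 3 G with loops of 1 to 7 bases, was in 1447 members (4.42%), 6.17% of all peaks and 13% of promoter peaks. At least 2 TTAGGG in a row were in 82 members (0.25%, against 0.131% of all peaks and 0.0208% of promoter peaks). At least 10 TG in a row were in 226 (0.69%, against 0.775% of all peaks and 0.479% of promoter peaks).

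ATAC signal at the members, by which they were chosen, is given without a test. The median pileup at the summit was 12 and 17 with scramble KD and 14 and 18 with TERRA KD, and the highest values were 437, 433, 456 and 449. Spearman correlations of the pileup between lists over the 32755 members ran from 0.73 to 0.85, and these lists share background and copy number of the same genome. Ranked within its own list, a member stood over 25 percentile points lower in both TERRA KD lists than in both scramble KD lists in 192 cases (0.586%) and higher in 288 (0.879%). Between replicate numbers the same measure gave 494 members lower (1.51%) and 56 higher (0.171%) in replicate 1 than in replicate 2, so shifts of this size were also seen between replicates. The rule has a threshold at 10 kb, and the 881 stable peaks at 9 to 10 kb had a median pileup of 12 and a median GC content of 51.5%, against 11.5 and 51.5% for the 894 members at 10 to 11 kb.

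ATRX peaks were on few members in scramble KD and on more in TERRA KD. In scramble KD, 274 members (0.837%, against 0.735% of all ATAC peaks) carried an ATRX peak in replicate 1 and 183 (0.559%, against 0.431%) in replicate 2. In TERRA KD these were 2775 (8.47%, against 6.96%) and 1146 (3.5%, against 3.21%). Both TERRA KD lists were above both scramble KD lists, and the members' shares were near those of all peaks in each list. The means were 0.698% ± 0.196 and 5.99% ± 3.52 (SD, n = 2), a difference of 5.29 percentage points, with an exact permutation p of 0.33, the smallest that 2 samples against 2 allow, so no difference could pass 0.05. The difference was 7.64 points in replicate 1 and 2.94 in replicate 2, and 5.27 without chromosome Y. Side by side it was 4.5 points over all ATAC peaks, 4.94 at promoter peaks and 1.97 at the 4901 distal peaks of scramble KD replicate 1 that no other ATAC list held.

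Most ATRX peaks on members were weak and were seen in 1 list. The ATRX peaks of TERRA KD replicate 1 on members had a median of 5 tags and a median −log10 p of 2.44, and 8.44% of them reached a −log10 p of 5. With that limit on the mark peaks, the shares of members were 0.153% and 0.195% with scramble KD and 0.751% and 0.598% with TERRA KD, a difference of 0.501 points. Taking equally many of the highest-ranked ATRX peaks from each list gave shares of 0.837%, 0.409%, 1.75% and 1.98%, a difference of 1.24 points. TERRA KD lists stayed above scramble KD lists under both, at lower values.

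**Figure D1:**
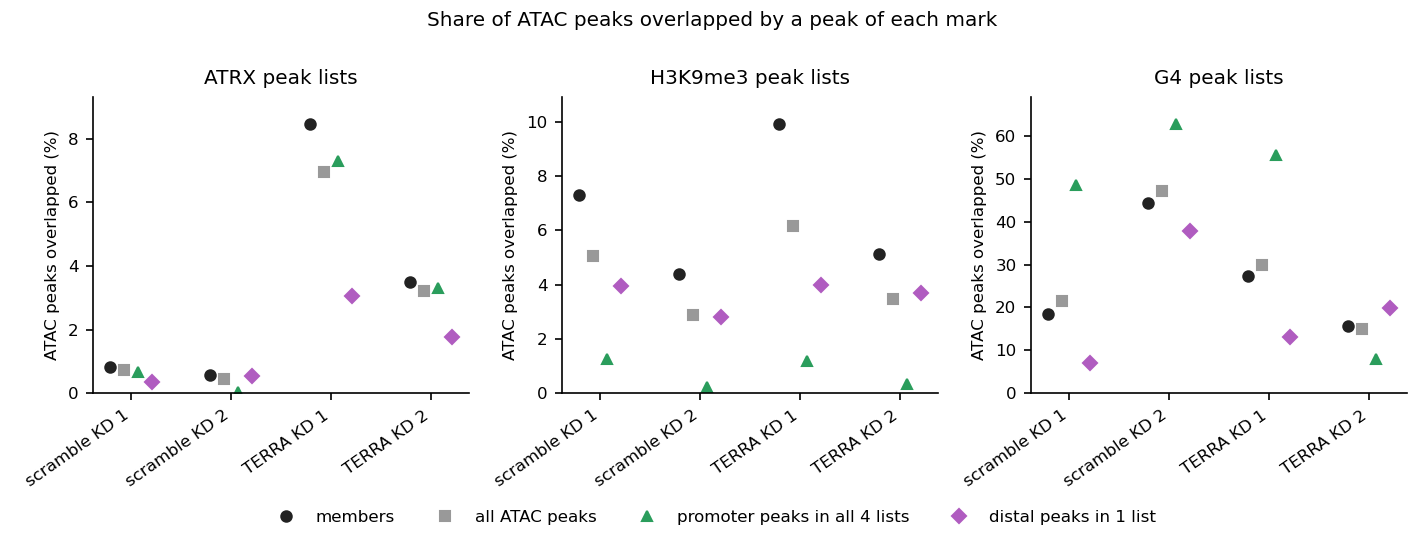
Share of ATAC peaks overlapped by a peak of each mark, 1 point per library: members (black), all ATAC peaks (grey), promoter peaks in all 4 lists (green) and distal peaks of scramble KD replicate 1 alone (purple), for the lists of scramble KD and TERRA KD on the x axis. ATRX on members ran from 0.559% to 8.47% with both TERRA KD points highest, and the 2 G4 libraries of scramble KD, at 18.5% and 44.3%, lie further apart than the condition means.

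Across lists, 28917 members (88.3%, against 89.8% of all ATAC peaks) had no ATRX peak at all and 3463 (10.6%, against 9.34%) had it in 1 list alone. ATRX in both TERRA KD lists and neither scramble KD list was seen at 193 members (0.589%), against 0.451% of all ATAC peaks. The reverse was seen at 1 member (0.00305%), against 0.00382% of all peaks, and ATRX in all 4 lists at 59 members (0.18%), against 0.11%. Among the 193 members, the median GC content was 61.5% and 35.8% were in single copy, compared with 51.5% and 78.9% of all members. H3K9me3 peaks were on 38.3% and 32.1% of them with scramble KD and on 42% and 38.3% with TERRA KD, and G4 peaks on 60.6%, 89.6%, 74.1% and 35.2%.

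The strongest of these 193 lay at a few loci, several of them in sequence with more than 1 copy. Members near Esp38, a gene for an exocrine gland-secreted peptide, lay at chr17:39843088-39845657 and chr17:39845865-39848688 and shared 1 ATRX peak in each TERRA KD list, with 2515 and 2881 tags. The latter overlaps Rn18s-rs5, a RefSeq pseudogene for 18S ribosomal RNA, and the pair was among the 5 members of highest ATAC pileup, at 316 and 273 in scramble KD replicate 1. G4 peaks with 2162, 7307 and 3548 tags covered both in scramble KD replicates 1 and 2 and TERRA KD replicate 1, and TERRA KD replicate 2 had none.

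Near Rny3, the gene of a small Y RNA, 3 members at chr6:47743738-47744706, chr6:47748139-47749015 and chr6:47752593-47753530 shared 1 ATRX peak per TERRA KD list, with 1453 and 1421 tags, and the 50 central bases of each occurred 16 times in the genome. Another, at chr6:47767710-47768154, had 125 and 348 ATRX tags and 12 copies. Others near G530011O06Rik were at chrY:90768149-90768543 (528 and 338 tags), chrX:169991007-169991750 (369 and 191) and chrX:169927174-169927937 (70 and 23, single copy, in a coding exon). The member near Gm8579 printed above, chr6:3182573-3183604, was in single copy and had H3K9me3 with 482 and 7 tags in TERRA KD.

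ATRX in all 4 lists marked another set. Adjoining members near Ccr1, the gene of a chemokine receptor, at chr9:123924448-123924783 and chr9:123924939-123925682 carried 1 ATRX peak with 273 and 168 tags with scramble KD and 565 and 195 with TERRA KD. These members held peaks of all 3 marks in all 12 lists, with ATAC pileups of 13, 59, 14 and 54 for the first. On chromosome Y, members with peaks in all 12 lists lay near Erdr1 at chrY:90824169-90824893 and chrY:90825051-90825617 and near G530011O06Rik at chrY:90741629-90742242. All of them lay past 90 Mb, and their central bases occurred in 2, 2 and 3 copies. Which copy the signal came from was not tested. Of the 59 members with ATRX in all 4 lists, 96.6% and 100% carried H3K9me3 in replicate 2 of scramble KD and TERRA KD, and 23.7% and 76.3% in replicate 1.

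ATRX peaks were most frequent at or beside the ATAC summits in 3 of the 4 lists. At the summit, 0.562% of members had an ATRX peak in scramble KD replicate 1, against 0.182% at 4 to 5 kb away, a ratio of 3.1. In scramble KD replicate 2 the values were 0.412% and 0.398%, a ratio of 1.04, with dips to 0.275% at 600 bp before the summit and 0.238% at 500 bp after it. In TERRA KD the summit values were 5.67% and 2.41%, against 1.11% and 0.811% away, ratios of 5.13 and 2.97. ATRX peaks covered 0.131%, 0.292%, 0.835% and 0.491% of the chromosomes.

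**Figure D2:**
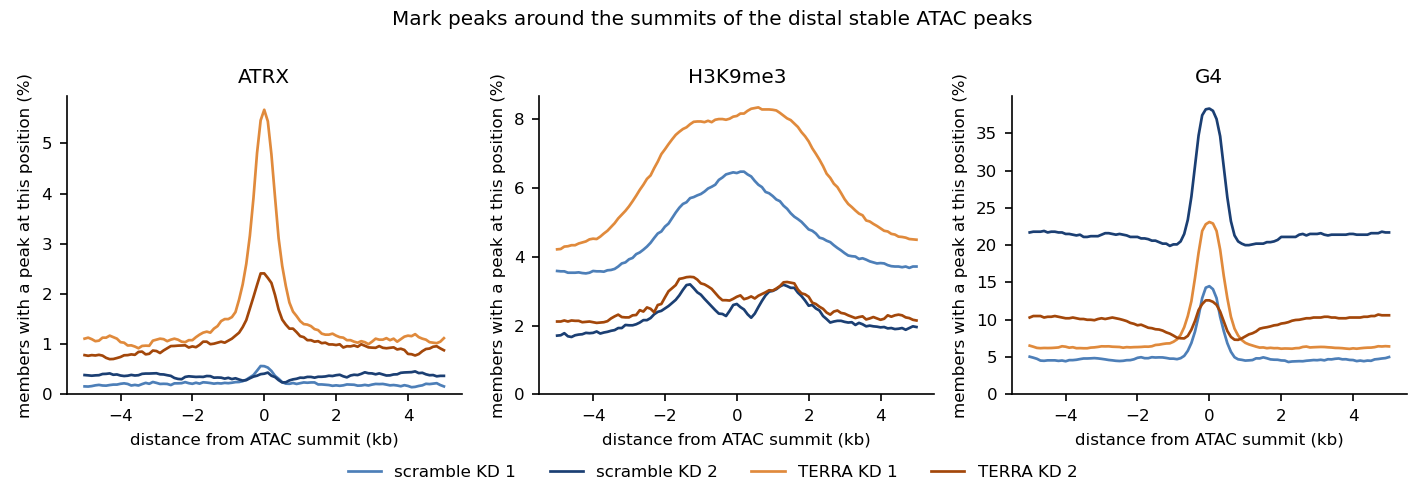
Percent of the 32755 members with a peak of ATRX, H3K9me3 or G4 at each position from 5 kb before to 5 kb after the ATAC summit, 1 line per library and a separate y scale for each mark. G4 in all lists and ATRX in 3 lists are highest at or beside the summit. ATRX in scramble KD replicate 2 rises there between dips, but not above its values further away. H3K9me3 in replicate 2 dips there between shoulders on either side.

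H3K9me3 peaks were on a minority of members and showed no separation of the conditions. They were on 2398 members (7.32%, against 5.07% of all ATAC peaks) and 1441 (4.4%, against 2.88%) in scramble KD, and on 3251 (9.93%, against 6.15%) and 1679 (5.13%, against 3.48%) in TERRA KD. Replicate 1 was above replicate 2 in both conditions, and the conditions overlapped. The means were 5.86% ± 2.07 and 7.53% ± 3.39 (SD, n = 2), a difference of 1.67 points with an exact permutation p of 0.667. It was 2.6 points in replicate 1 and 0.727 in replicate 2, 1.65 without chromosome Y and 0.343 on single-copy members. Without TERRA KD replicate 1 the sign turned, to −0.734 points. Promoter peaks held less of the mark, at 0.736% ± 0.726 and 0.763% ± 0.599 (SD, n = 2).

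In all 4 lists, H3K9me3 was on 377 members (1.15%), against 0.853% of all ATAC peaks. It was in both TERRA KD lists alone on 172 members (0.525%, against 0.278%) and in both scramble KD lists alone on 54 (0.165%, against 0.11%), while 27965 (85.4%, against 90.6%) had none. The 5 strongest members with the mark in all lists lay on chromosome Y, near Gm10256 (at chrY:2874443-2875085 and chrY:2875699-2876238), Gm4064 (chrY:2783546-2783809), Erdr1 (chrY:90810385-90811424) and Gm21838 (chrY:89126291-89126554). The first pair shared 1604, 147, 1701 and 181 H3K9me3 tags in the 4 lists, ATAC pileups there were 7 to 13, and the sequence was fully masked. The Erdr1 member differed from them with ATAC pileups of 102 to 134 and ATRX in every list, at 673, 320, 1325 and 181 tags.

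Around the members H3K9me3 was broad. In replicate 1 the share at the summit was 6.44% in scramble KD and 8.1% in TERRA KD, against 3.65% and 4.5% at 4 to 5 kb. In replicate 2 it was 2.63% and 2.84%, against 1.84% and 2.18%, and the profile was highest on either side of the summit rather than at it. The replicate difference goes with the length of the peaks given above, and its cause was not tested.

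G4 peaks were the most common of the 3 marks on the members, and their shares followed the library more than the condition. They were on 6075 members (18.5%, against 21.6% of all ATAC peaks) and 14511 (44.3%, against 47.3%) in scramble KD, and on 8980 (27.4%, against 29.9%) and 5097 (15.6%, against 14.9%) in TERRA KD. The order of the lists was that of their tags except for TERRA KD replicate 2, which had 13127555 tags and the lowest share. The means were 31.4% ± 18.2 and 21.5% ± 8.38 (SD, n = 2), a difference of −9.94 points with an exact permutation p of 0.667. The replicates went opposite ways, by 8.87 points in replicate 1 and −28.7 in replicate 2, as did the tag ratios of 1.95 and 0.53. Without scramble KD replicate 2 the difference was 2.94 points, and without chromosome Y it was −9.96. At promoter peaks the replicates also parted, by 7.06 and −55 points.

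G4 in both scramble KD lists and neither TERRA KD list was seen at 537 members (1.64%), against 2.52% of all ATAC peaks. The reverse held for 110 members (0.336%, against 0.283%), and G4 in all 4 lists for 1653 (5.05%, against 4.42%). Members without G4 in any list numbered 16035 (49%, against 44.5%). At promoter peaks the share with G4 in scramble KD lists alone was 7.29%.

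The strongest members with G4 in all 4 lists were near Gm10406 (chr14:7053609-7053872, with 72, 339, 175 and 222 tags), Tmem121 (chr12:113335254-113336224, with 59, 558, 234 and 231), Atg7 (chr6:114528230-114529017, with 89, 2021, 636 and 1096), Itpr2 (chr6:146403092-146403671, with 32, 196, 85 and 142) and 9230117E06Rik (chr16:22477213-22478054, with 32, 164, 63 and 112). Tags here are not scaled to depth, and in each of these members scramble KD replicate 2, the deepest library, had the most. None of the 5 had ATRX in scramble KD, and 3 of them had it in TERRA KD replicate 2.

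G4 in scramble KD alone was led by 3 members near Rn4.5s, the gene of a 4.5S small RNA, at chr6:47685066-47686446, chr6:47680769-47681782 and chr6:47676440-47677043, each with central bases in 29 copies. Their G4 tags were 178, 301 and 276 in replicate 1 and 1096, 1223 and 2210 in replicate 2, and their ATAC pileups were between 121 and 167 in every list. Others were near Gm21119 (chr8:20590368-20591269, 153 and 1233 tags) and Jph2 (chr2:163340151-163340643, 19 and 205 tags). In TERRA KD alone, the members near Gm10406 (chr14:6988726-6989157, 35 and 70 tags), Gm17660 (chr5:104088865-104089222, 13 and 16) and Maf (chr8:115158084-115158759, 14 and 17), the last near the gene of a leucine zipper transcription factor, ranked first.

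At the summit 14.5% of members had G4 in scramble KD replicate 1 and 38.3% in replicate 2, against 4.64% and 21.7% at 4 to 5 kb. In TERRA KD the values were 23.1% and 12.6%, against 6.3% and 10.4%, so the ratio was 3.12 and 1.77 with scramble KD and 3.66 and 1.21 with TERRA KD. Replicate 1 had the higher ratio in both conditions. G4 peaks covered 3.27%, 14.8%, 4.77% and 7.45% of the chromosomes.

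Base composition separated members with and without G4. Among single-copy members with GC of 40 to under 50%, G4 peaks were on 4.39%, 19.5%, 7.14% and 7.11% in the order of scramble KD replicates 1 and 2 and TERRA KD replicates 1 and 2. With GC of 60% or more these were 47.1%, 81.4%, 67.5% and 29.9%. The share was higher at higher GC in every list. Members with the G4 motif carried G4 peaks at 25.9%, 54.3%, 35% and 17.8%, against 18.2%, 43.8%, 27.1% and 15.5% of members without it. Of these groups 91.4% and 78.3% were in single copy. Among single-copy members G4 was on 22.9%, 55.4%, 32.3% and 17.7% with the motif, against 10.3%, 38.1%, 17.2% and 13.3% of all. Between the single-copy GC classes above, ATRX went from 0.732% to 0.552% and from 0.436% to 0.255% in scramble KD. In TERRA KD it went from 6.47% to 8.87% and from 1.49% to 4.71%. H3K9me3 in TERRA KD replicate 1 was on 6.79%, 3.23% and 8.27% at GC of 40 to under 50%, 50 to under 60% and 60% or more, with no steady direction.

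Members in more than 1 copy carried all 3 marks more often than single-copy ones. Members in more than 10 copies, 5174 in number, carried ATRX at 0.87% and 1.12% with scramble KD and at 13.8% and 7.52% with TERRA KD, against 0.735%, 0.352%, 7.05% and 2.37% of the 25833 single-copy members. H3K9me3 was on 13.5%, 12.2%, 26.7% and 14.1% of the former and 5.12%, 2.25%, 5.53% and 2.52% of the latter. G4 was on 56.7%, 73.7%, 75% and 24.9% against 10.3%, 38.1%, 17.2% and 13.3%. In every list the members in more than 10 copies were above the single-copy ones. So were the 1748 members in 2 to 10 copies, with ATRX on 2.23%, 1.95%, 13.7% and 8.24%. H3K9me3 was on 21.6%, 13%, 25.1% and 17.2% of these 1748, and G4 on 28.3%, 49.5%, 38.2% and 21.5%. They were above the class of more than 10 copies in ATRX and H3K9me3, except in TERRA KD replicate 1, and below it in G4. Median GC was 63.5% with more than 10 copies and 50% in single copy, and its part was not tested. Single-copy members with GC of 60% or more carried G4 on 47.1%, 81.4%, 67.5% and 29.9%. These shares were above those of members in more than 10 copies in replicate 2 of both conditions and below them in replicate 1. On single-copy members alone the ATRX difference between conditions was 4.17 points, with an exact permutation p of 0.33, and 69 members had ATRX in both TERRA KD lists only.

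Masked and unmasked members differed in H3K9me3 and G4. Among the 9800 members with no masked base, H3K9me3 was on 2.47%, 0.806%, 2.04% and 1.19%, while among the 5722 fully masked members it was on 14.6%, 12.6%, 27.7% and 13.6%. G4 was on 11.5%, 44.5%, 19.2% and 14.8% of the former and 55.9%, 74.2%, 74.9% and 25.9% of the latter. Median GC was 52% and 63.5% in these classes, and its part was not tested. Intergenic members carried H3K9me3 at 10.1%, 6%, 13.8% and 7%, against 3.74%, 2.44%, 4.97% and 2.78% of intronic ones.

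**Figure D3:**
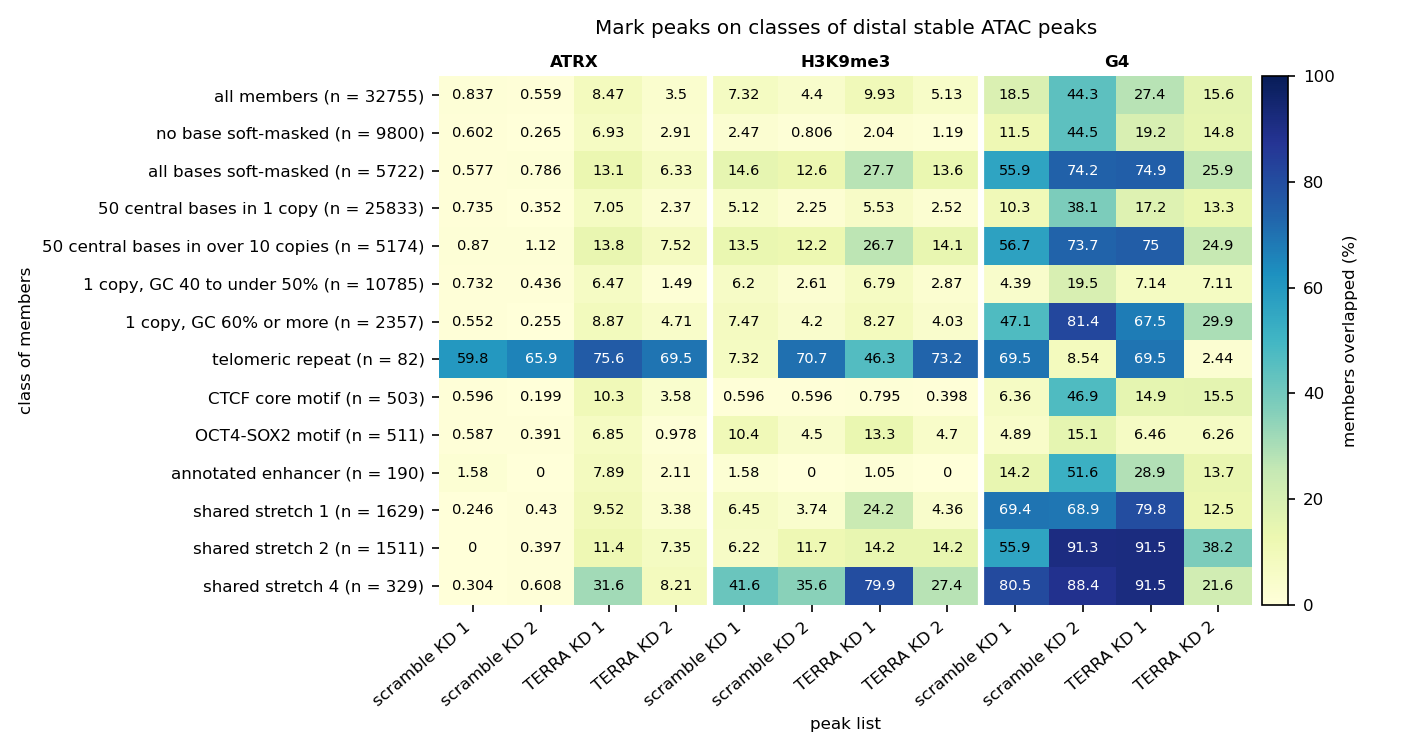
Percent of members in each class (rows, with the number of members) that carried a peak of ATRX, H3K9me3 or G4 in each list (columns), with the value printed in the cell and shown by colour from 0 to 100%. Telomeric-repeat members stand out for ATRX at 59.8% to 75.6%, and H3K9me3 on shared stretch 4 reaches 79.9% in TERRA KD replicate 1.

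The shared stretches carried the marks unevenly. On the 1629 members with stretch 1, G4 peaks were on 1130, 1122, 1300 and 204, and H3K9me3 on 6.45%, 3.74%, 24.2% and 4.36%. The 1511 members with stretch 2 had G4 on 55.9%, 91.3%, 91.5% and 38.2%. Stretch 4, with 329 members, had H3K9me3 on 41.6%, 35.6%, 79.9% and 27.4%, and ATRX on 31.6% in TERRA KD replicate 1. Stretch 9, with 102 members and a median GC of 43%, had H3K9me3 on 43.1%, 24.5%, 47.1% and 30.4%. The 28059 members with none of the 9 stretches had ATRX on 0.944%, 0.581%, 7.89% and 3.13%, near the values of all members, and G4 on 11.2%, 38.2%, 17.8% and 13.7%. In the printed windows of stretches 1, 2 and 4 the 50 central bases occurred in 20, 2106 and 281 copies.

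Of the sequence classes compared, members with telomeric repeats had the highest shares of ATRX. The 82 such members lay on 21 chromosomes, 75 of them (91.5%) with at least 4 TTAGGG in a row, and the longest run in the window had a median of 11 and a maximum of 33 repeats. ATRX peaks were on 49 and 54 of them with scramble KD and on 62 and 57 with TERRA KD, with median tags of 60 and 44.5, and 86 and 45. Of the 82, 42 had ATRX in all 4 lists. The lists of TERRA KD held more of them than those of scramble KD in both replicates. In the 31 single-copy ones the shares were 71% and 61.3% with scramble KD and 80.6% and 71% with TERRA KD.

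H3K9me3 and G4 on the telomeric members followed the replicate. H3K9me3 was on 6 of the 82 in scramble KD replicate 1 and on 38 in TERRA KD replicate 1, against 58 and 60 in replicate 2. G4 was on 57 and 57 in replicate 1 and on 7 and 2 in replicate 2. The pattern held for G4 in both conditions, and its cause was not tested.

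Distance from genes separated the marks. On single-copy members, H3K9me3 went from 3.71%, 1.52%, 3.89% and 1.89% at 10 to 20 kb from a TSS to 13.6%, 6.27%, 17.3% and 7.29% at more than 500 kb, a class of 686 members. G4 on single-copy members went from 11.5%, 43.7%, 19.1% and 14% to 7.58%, 19.2%, 14.4% and 12.1%, and median GC was 51% and 45.8% in these classes. Over all members G4 went the other way, from 14.6%, 45.1%, 22.4% and 14.6% to 29.5%, 46%, 44.5% and 19.1%. ATRX on single-copy members was on 0.704%, 0.219%, 7.35% and 2.61% in the first class and 1.31%, 1.46%, 6.71% and 2.33% in the last. The last was thus higher in scramble KD and lower in TERRA KD, and in scramble KD its shares rest on few of the 686 members. No list had a steady trend, and at 100 to 500 kb the shares were 0.634%, 0.338%, 6.59% and 1.78%. At the 10 kb limit, given with no test, stable peaks at 9 to 10 kb carried ATRX on 1.36%, 0.568%, 9.42% and 2.84%, and members at 10 to 11 kb on 0.895%, 0.224%, 8.5% and 3.13%.

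**Figure D4:**
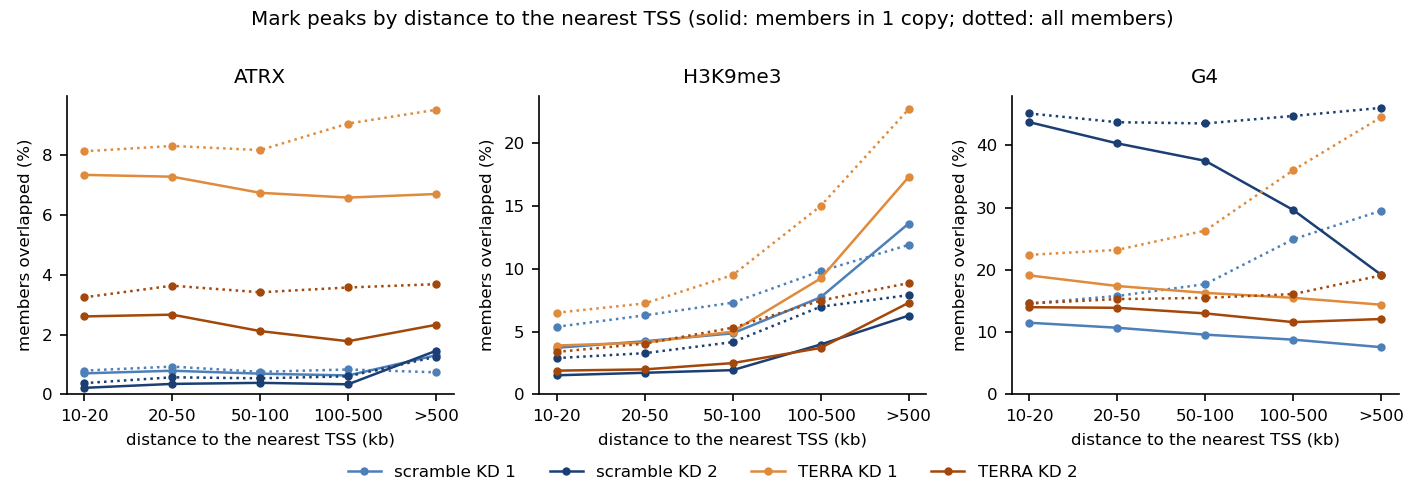
Percent of members overlapped by a peak of each mark against the distance to the nearest TSS in 5 classes (kb), for single-copy members (solid) and all members (dotted), with 1 line per library. H3K9me3 is highest over 500 kb in every library, reaching 17.3% on single-copy members in TERRA KD replicate 1. Single-copy ATRX is higher over 500 kb than at 10 to 20 kb in both scramble KD libraries and lower in both TERRA KD libraries. The single-copy class over 500 kb has 686 members, few of them with ATRX in scramble KD.

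Single-copy members with stronger ATAC signal carried more ATRX and less G4. Single-copy members were ranked by their pileup in scramble KD replicate 1 and split into 5 equal classes. ATRX in TERRA KD replicate 1 was on 5.01% of the lowest class and 10.4% of the highest, and in scramble KD replicate 1 on 0.503% and 1.24%. In replicate 2 it was on 0.213% and 0.464% with scramble KD and on 2.15% and 2.84% with TERRA KD. G4 went the other way in all 4 lists, from 11% to 8.44%, 44.3% to 26.1%, 19.5% to 11.9% and 17.9% to 6.27%. Over all members, split likewise, G4 had no common direction, with 14.5% and 19.7%, 46.5% and 37.3%, 24.8% and 25.1%, and 19.5% and 9.34% in the lowest and highest class of the 4 lists. H3K9me3 was on 4.64% and 5.73% in scramble KD replicate 1 and on 2.28% and 2.05% in replicate 2, with no common direction.

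Members with ATRX held H3K9me3 at a higher share than all members did, in every library pair. Of the members with ATRX, 27.7% and 57.4% had H3K9me3 with scramble KD and 25.5% and 26% with TERRA KD, against 7.32%, 4.4%, 9.93% and 5.13% of all members in the same library pair. On single-copy members these were 17.9%, 49.5%, 14% and 13.5%, against 5.12%, 2.25%, 5.53% and 2.52%. ATRX and H3K9me3 of a replicate were called against the same input, and the part of this in the overlap was not tested. All 3 marks met on 29 and 28 members with scramble KD (0.0885% and 0.0855%) and on 418 and 107 with TERRA KD (1.28% and 0.327%). The same share over all ATAC peaks was not computed. ATRX by itself was on 0.735% and 0.431% of all ATAC peaks with scramble KD and on 6.96% and 3.21% with TERRA KD. In both TERRA KD replicates 34 members had all 3 marks, and for this count too the share over all ATAC peaks was not computed. After the Ccr1 pair, the leading ones were near 1700030N03Rik (chr19:3228001-3228489), Mindy3 (chr2:12497380-12497700) and Olfr330 (chr11:58518831-58519470), all in several copies.

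Members with factor motifs differed in their marks. The 503 CTCF members had H3K9me3 on 0.596%, 0.596%, 0.795% and 0.398%, against 7.32%, 4.4%, 9.93% and 5.13% of all members. Of the CTCF members 97.8% were in single copy, with a median of 2.5% of the window masked. Members with no masked base, a closer comparison, had H3K9me3 on 2.47%, 0.806%, 2.04% and 1.19%. ATRX was on 0.596%, 0.199%, 10.3% and 3.58% of the CTCF members, against 0.837%, 0.559%, 8.47% and 3.5% of all members. The 511 OCT4-SOX2 members, with a median GC of 43.5%, had G4 on 4.89%, 15.1%, 6.46% and 6.26% and H3K9me3 on 10.4%, 4.5%, 13.3% and 4.7%. Members overlapping annotated enhancers had H3K9me3 on 1.58%, 0%, 1.05% and 0%, ATRX on 1.58%, 0%, 7.89% and 2.11%, and G4 on 14.2%, 51.6%, 28.9% and 13.7%. Of these 190 members 99.5% were in single copy.

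Near 44 genes of pluripotency, 269 members lay at more than 10 and at most 100 kb from the TSS, and each of the genes had at least 1. Single-copy sequence made up 98.1% of them, and 49.1% carried no mark in any list, against 40.2% of all members and 37.8% of all ATAC peaks. ATRX was on 1 and 0 of them in scramble KD and on 32 (11.9%, against 6.96% of all ATAC peaks) and 4 (1.49%, against 3.21%) in TERRA KD, above the background in replicate 1 and below it in replicate 2. H3K9me3 was on 1, 0, 2 and 1 members (0.372%, 0%, 0.743% and 0.372%, against 5.07%, 2.88%, 6.15% and 3.48%). G4 was on 26, 101, 47 and 22 (9.67%, 37.5%, 17.5% and 8.18%, against 21.6%, 47.3%, 29.9% and 14.9% of all ATAC peaks). The 86 members near 28 lineage genes, which are mostly silent in ES cells, carried ATRX on 0, 0, 10 (11.6%) and 4 (4.65%) and H3K9me3 on 5, 2, 3 and 2 (5.81%, 2.33%, 3.49% and 2.33%), to be read against the same background shares. The 71 members near 32 imprinted genes (of 33 listed) carried ATRX on 0, 0, 2 (2.82%) and 1 (1.41%) and H3K9me3 on 0, 0, 1 (1.41%) and 0. ATRX in both TERRA KD lists alone was found on 1 pluripotency and 1 lineage member and on no imprinted one, against 0.589% of all members.

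Sox2, whose product pairs with OCT4 on enhancers, had 7 members within 100 kb and 4 more in its control region, the distal enhancer annotated at chr3:34755799-34762535. Pileups of these 4 in scramble KD replicates 1 and 2 and TERRA KD replicates 1 and 2 were 27, 40, 34 and 48 at chr3:34756480-34757000, and 36, 51, 36 and 54 at chr3:34757789-34758280. They were 28, 55, 52 and 107 at chr3:34760076-34760690, and 79, 99, 82 and 107 at chr3:34761114-34761637. In each, replicate 2 was above replicate 1 of the same condition. The only mark peak on the 4 was ATRX with 5 tags in TERRA KD replicate 1 on the third. The closer enhancer at chr3:34668206-34668913, with pileups of 24 to 42, had none.

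**Figure D5:**
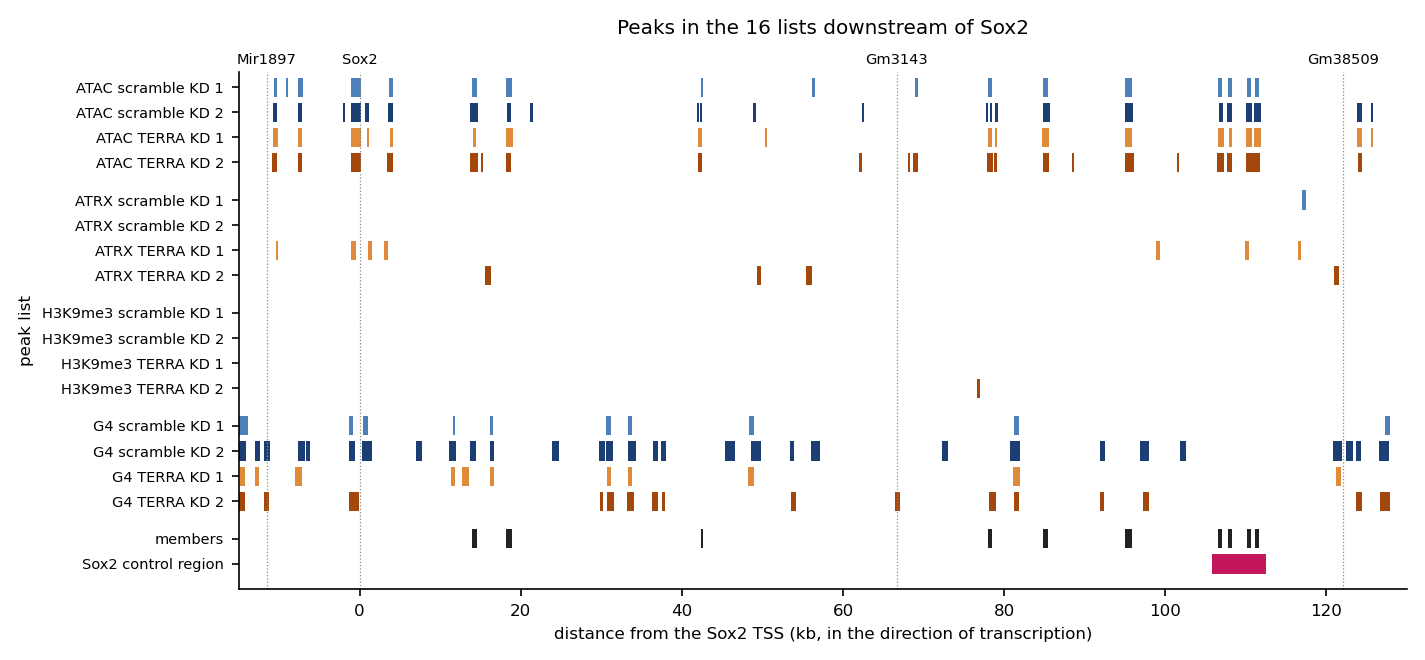
Peaks of the 16 lists (rows, blue for scramble KD and orange for TERRA KD) along the Sox2 locus, by distance from the Sox2 TSS in kb in the direction of transcription, with the members in black, the annotated control region in magenta and neighbouring TSSs as dotted lines. The 4 members inside the control region are seen in all ATAC lists, with 1 ATRX peak of TERRA KD replicate 1 over them and no H3K9me3 or G4 peak.

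Nanog, the gene of a homeobox factor of the pluripotency network, had 12 members. ATRX was on 3 of them in TERRA KD replicate 1 and in no other list. Tags were 14, 14 and 11 at chr6:122660733-122661149, chr6:122662480-122663540 and chr6:122669299-122669851. The first 2 had the same tags and the same −log10 p of 3.8, and may share 1 peak. The second of the 3 members is in the annotated enhancer upstream of Nanog. It had G4 peaks of 34 tags (scramble KD replicate 2) and 9 tags (TERRA KD replicate 1). The members of the downstream enhancer, chr6:122764481-122765424 and chr6:122766257-122766911, with pileups of 65 to 86 and 54 to 73, carried no mark. Nor did the printed member at chr6:122770254-122770949.

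Klf4, which encodes a reprogramming factor, had 5 members, of which 3 at chr4:55463966-55465024, chr4:55475401-55475818 and chr4:55477219-55478387 had ATRX with 5 tags each in TERRA KD replicate 1 alone. Esrrb, the gene of an orphan nuclear receptor, had 7, of which 2 had ATRX with 4 and 5 tags in the same list and 5 had G4 in scramble KD replicate 2. The 3 members of the Esrrb enhancer cluster, at 138 to 143 kb from the TSS, had pileups of 24 to 115 and a single mark peak, G4 with 53 tags in scramble KD replicate 2. Prdm14, a repressor of DNA methylation in naive cells, had 10 members with no ATRX or H3K9me3 in any list and G4 on 2 of them, in scramble KD replicate 2. The 3 members of Tbx3, a T-box factor, had no mark.

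Other genes of the list with many members were Zfp281 and Sall4, both of zinc finger factors, with 12 each, Klf5 with 11, and Nodal, Socs3, Jarid2 and Dnmt3b with 9 each. H3K9me3 was on none of the members of these genes. Of the 12 Sall4 members 10 had G4 in scramble KD replicate 2, and so did all 9 of Socs3, an inhibitor of LIF signalling, against 1 of 9 for Jarid2, a cofactor of Polycomb. At the Mir290 enhancer cluster, upstream of a microRNA family of ES cells, members at chr7:3201062-3201781 and chr7:3206233-3207071 had ATRX with 5 and 7 tags in TERRA KD replicate 1. Enhancer clusters of Sall1 and Tet1 had members with no mark. That of Ranbp17 had a 3-copy member, chr11:33527326-33528416, with H3K9me3 in replicate 1 at 66 and 136 tags.

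Members came mostly singly. Chained at gaps up to the distance commonly used to stitch enhancers, they formed 24437 groups, of which 18882 held 1 member and 606 held at least 4, with 2945 members (8.99%) in them. The largest group had 34 members at chr6:114497124-114629579 near Atg7, an autophagy gene. None of the 34 was in single copy. ATRX was on 32 of them in TERRA KD replicate 2 and on none in the other lists, and G4 on 34, 28, 31 and 12.

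The next groups were mostly in single copy and had few ATRX or H3K9me3 peaks. Firre, the locus of a long noncoding RNA on the X chromosome, had 15 members at chrX:50549930-50623616, with a median pileup of 17, no ATRX or H3K9me3 in any list and G4 on 0, 3, 0 and 2. The group near Lrrc74a (chr12:86761166-86837002) had 14 members and G4 on 1, 8, 0 and 0. That near Gpx5 (chr13:21215216-21280157) had 12 and a single G4 peak in scramble KD replicate 2. A group near Tcf7l1, the gene of a Wnt pathway repressor, at chr6:72800600-72881885 had 11 members, with ATRX on 1 of them each in scramble KD replicate 1 and TERRA KD replicate 2. Among other groups of 11, that near Mir101c (chr9:3000137-3025947) had pileups of 72 to 198, a median GC of 34.5% and 1 single-copy member, and G4 on all 11 in scramble KD replicate 1 and on none in the other lists.

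The members of highest ATAC pileup were not typical of the set. The highest, near Lrrc4c at chr2:98666190-98667361, had pileups of 437, 433, 445 and 449, lay 2350 kb from that TSS, and carried ATRX in TERRA KD replicate 2 (1959 tags), H3K9me3 in replicate 2 of both conditions (1968 and 1975) and G4 in 3 lists (1950, 2029 and 1922). Its neighbour at chr2:98662189-98662903 had pileups of 278 to 297 and marks in the same lists. The member near Col19a1 at chr1:24611624-24616091, with pileups of 435, 421, 456 and 413, carried no mark. All of the 24-base stretches in its window are also found in the mitochondrial genome, which held for at least 90% of the stretches in 2 members of the 32755.

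Members with no peak of any mark in any list numbered 13170 (40.2%, against 37.8% of all ATAC peaks). Their median pileup was 13 and their median GC 47.5%, and 93.4% were in single copy, against 12, 51.5% and 78.9% of all members. At least 1 ATRX peak was found on 3838 members (11.7%), H3K9me3 on 4790 (14.6%) and G4 on 16720 (51%). Over all ATAC peaks, 89.8% had no ATRX, 90.6% no H3K9me3 and 44.5% no G4 peak in any list, against 88.3%, 85.4% and 49% of members. As the lists differ in depth, the unmarked members are those where no mark was detectable at these depths.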

How the data were processed

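ATRX, H3K9me3, G4 and ATAC peak lists of 2 conditions and 2 replicates were analysed, 16 lists of 22 samples, the other 6 being inputs. The authors trimmed reads with Trim Galore 0.5.0, aligned them to mm10 (GRCm38) with Bowtie2 2.3.4.1 at default settings, removed duplicates with SAMtools 1.9, and called peaks in each library at p 0.01 with MACS 1.4.3 (ATRX, H3K9me3) or 1.4.2 (G4) against input and MACS 2.2.7.1 (ATAC) without input. The deposited ChIP lists give the tag count of each peak, a score of −10 times log10 of its p, and the fold enrichment ratio over the local background. The deposited ATAC lists hold, for the summit, a pileup signal, a −log10 p and a fold enrichment. Depth was not corrected for in these values.

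Members were found by overlap of at least 1 bp and by distance to the TSSs of 26182 curated RefSeq genes, and a mark was counted as present where its peak overlapped the member by at least 1 bp. The members and lists were chosen with earlier results of these data known. Shares per library were compared between conditions by exact permutation of the 2 against 2 libraries, two-sided, and SDs are over 2 libraries. Sequence, soft-masking, copies of the 50 central bases (both strands) and motifs were read from the 200 bp window at the ATAC summit in GRCm38. Regions were named by the curated gene with the nearest TSS, which states proximity only. They were the 5 members of highest pileup, those ranked first by the worse mark p within each pattern, the members near pluripotency genes and in annotated elements of those loci, and the largest groups of members, with chromosome 18 left out. The shared stretches, the groups and the matches to the mitochondrial genome were described after the values were seen. Counting code was tested on simulated data. Python 3.11.15, numpy 2.4.6, pandas 2.3.3, scipy 1.17.1 and matplotlib 3.10.9 were used. Alternatives changed the distance, the overlap, the p of the mark peaks, the masking and the libraries used. Some items that the naming rule selects are not reported here.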

Additional observations from a re-analysis of the deposited data

How the results depend on the processing

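Of 101 comparisons with an alternative, 2 reversed, 24 counts moved by over 1.5 times, and in 75 a share difference kept its direction or a count stayed within 1.5 times. Direction alone was asked of the share differences, and their size was not always kept. The ATRX difference of 5.29 points was 0.501 above a −log10 p minimum of 5 and 1.24 when each list gave equally many peaks, the G4 difference of -9.94 was then -4.72, and the H3K9me3 difference of 1.67 was 0.16 among members at most 50% masked, 0.343 among single-copy members and 0.205 without scramble KD replicate 2. The reversals were H3K9me3 without TERRA KD replicate 1, −0.734 points, and G4 without scramble KD replicate 2, 2.94 points. Leaving out libraries gave ATRX differences of 2.8 to 7.77 points, H3K9me3 of −0.734 to 4.07 and G4 of −22.8 to 2.94. It gave 1059 to 2653 members with ATRX in TERRA KD alone, 630 to 1768 with H3K9me3 throughout and 1044 to 10075 with G4 in scramble KD alone, since fewer lists then had to hold or lack a peak. With both replicates these counts were 193, 377 and 537. They were 105, 206 and 252 among the 15280 members more than 50 kb from every TSS, 75, 67 and 343 among members at most 50% masked, and 69, 165 and 356 among single-copy members, an alternative chosen after seeing the data. The first pair of counts was 29 and 85 with a −log10 p of at least 5 for the mark peaks, 113 and 186 with a peak over at least 50% of the member, 386 and 1013 with a peak within 1 kb, and 63 and 192 with equally many of the highest-ranked peaks from each list. Apart from the smaller or larger sets these settings make, the cause was not tested.

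With the replicate number as a replicate block, the paired differences were 5.29 points (exact permutation p = 0.5), 1.67 (p = 0.5) and −9.94 (p = 1), and 2 pairs cannot give a p below 0.5. Over 2338 stretches of 1 Mb, same-numbered libraries deviated together with r of 0.03 for ATRX, 0.31 for H3K9me3 and 0.26 for G4, and with 2 pairs the samples are taken to share only a number.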
